A study of Mus musculus with 30 samples.

Results

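The genes described here make and handle coenzyme Q (ubiquinone) in mouse liver. They were chosen by name as a list of 10 of the 57180 genes in the count table: Coq2, Coq3, Coq4, Coq5, Coq6, Coq7, Coq8a, Coq9, Coq10a and Coq10b. The list was drawn up with the difference between UB and MC livers in view, in which Coq10b and Coq8a stood out, so for all members that difference is described without a test. For Coq10b and Coq8a the other comparisons that use the UB or MC livers are also description only. The rule set no threshold on any value.

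Liver RNA was sequenced in 2 studies of UB-NPs, a preparation known here by its abbreviation alone and given daily by oral gavage. In the prevention study, which lasted 10 weeks, UB mice had a high-fat diet with 60 mg/kg/day of UB-NPs, MC mice the high-fat diet with water, and NC mice a standard diet with water. In the treatment study, Uro and HFD mice were made obese by 10 weeks of high-fat diet and then kept on it for 8 weeks. The Uro group then received UB-NPs at 60 mg/kg/day and the HFD group water, while the NFD group stayed on a standard diet with water for all 18 weeks. Neither strain, sex nor age is given, the design names 10 mice per group, and the 5 libraries of a group are treated as 5 mice, although no label ties a library to a mouse.

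Coenzyme Q is a lipid of the inner mitochondrial membrane that carries electrons from dehydrogenases to the cytochrome part of the respiratory chain, and in other membranes it acts as an antioxidant. Its ring is joined to a long isoprenoid tail, the product of the mevalonate pathway, and is then hydroxylated, methylated and trimmed by enzymes that sit together in a complex on the membrane. The liver makes its own coenzyme Q, and much of hepatic fat oxidation passes electrons to it.

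The members' roles order the results. Coq2 attaches the tail to the ring. Coq6 and Coq7 are hydroxylases of the ring, Coq3 and Coq5 methylate it, and Coq4 and Coq9 belong to the complex, where Coq9 binds the lipid intermediate and hands it to Coq7. Coq8a is an atypical kinase-like ATPase that supports the complex. Coq10a and Coq10b are paralogs with a lipid-binding START domain whose yeast counterpart is needed for coenzyme Q to work in respiration but not for its synthesis.

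Libraries held 17 to 24.3 M counts. The share of counts from the 37 mitochondrially encoded genes differed between groups, at 30.7 ± 2.89% in UB, 34.3 ± 9.19% in MC and 46.6 ± 3.43% in NC livers, and 13.1 ± 1.95% in Uro, 47.0 ± 7.13% in HFD and 49.1 ± 7.82% in NFD livers (SD, n = 5 each). The Uro libraries, at 10.2 to 15.6%, lay apart from all others. The tissue label fits the markers: the summed CPM of 5 hepatocyte genes was at least 10103 in every library, while 5 skeletal muscle genes together reached at most 1.76 CPM and 4 adipocyte genes at most 1.86 CPM. Levels below are CPM (counts relative to library sizes scaled by TMM over all 30 libraries), and "called" means an adjusted p under 0.05 in the edgeR quasi-likelihood test with Benjamini-Hochberg adjustment over all genes tested in a study.

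Coq10b, the START-domain gene that the list turns on, lies on the plus strand at chr1:55091923-55115640 (GRCm39). The RefSeq table of promoter windows (GRCm38.p6, 250 bases before to 50 after an annotated start, 5′ to 3′ along the gene's strand) held 12 windows for 9 of the 10 members, Coq5 being the member with no entry. Windows are shown for the START-domain pair, because one of the pair differed between UB and MC livers and the other did not, for Coq8a, which differed the other way, and for Coq7, which had the largest difference between Uro and HFD livers. Capitals mark the letters of any of 10 searched motifs on either strand. In these windows the motifs found were the E-box CACGTG, the D-box TTATGTAA, the CCAAT box CCAAT and the CRE core TGACG, each also read as its reverse complement. The other motifs searched and not found in these windows were the full CRE TGACGTCA, the ERR element TCAAGGTCA, the DR1 element (AGGTCA repeated after 1 free base), the NRF1 palindrome, the ETS core CCGGAAGT and the TATA box TATAAA. The CRE core lies within the full CRE, so a match to the full CRE would count for both.
Coq10b, chr1:55052520-55052819, plus strand: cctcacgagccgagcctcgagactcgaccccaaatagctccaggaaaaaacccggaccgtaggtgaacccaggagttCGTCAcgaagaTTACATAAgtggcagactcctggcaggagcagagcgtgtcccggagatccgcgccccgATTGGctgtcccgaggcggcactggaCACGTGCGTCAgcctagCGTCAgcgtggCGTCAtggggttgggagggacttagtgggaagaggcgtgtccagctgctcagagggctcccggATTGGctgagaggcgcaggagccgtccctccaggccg
Coq10a, first start, chr10:128368931-128369230, minus strand: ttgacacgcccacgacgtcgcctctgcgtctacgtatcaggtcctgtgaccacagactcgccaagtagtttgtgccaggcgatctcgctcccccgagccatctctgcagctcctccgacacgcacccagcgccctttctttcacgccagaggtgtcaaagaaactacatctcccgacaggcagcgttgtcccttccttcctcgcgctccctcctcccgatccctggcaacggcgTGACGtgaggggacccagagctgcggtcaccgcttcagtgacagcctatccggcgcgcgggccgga
Coq8a, second start, chr1:180195971-180196270, minus strand: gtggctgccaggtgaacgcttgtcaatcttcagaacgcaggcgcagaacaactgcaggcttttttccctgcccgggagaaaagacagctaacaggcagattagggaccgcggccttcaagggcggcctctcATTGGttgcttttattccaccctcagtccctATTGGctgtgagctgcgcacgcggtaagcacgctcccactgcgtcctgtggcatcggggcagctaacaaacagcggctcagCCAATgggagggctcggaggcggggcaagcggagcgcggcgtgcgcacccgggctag
Coq7, chr7:118533307-118533606, minus strand: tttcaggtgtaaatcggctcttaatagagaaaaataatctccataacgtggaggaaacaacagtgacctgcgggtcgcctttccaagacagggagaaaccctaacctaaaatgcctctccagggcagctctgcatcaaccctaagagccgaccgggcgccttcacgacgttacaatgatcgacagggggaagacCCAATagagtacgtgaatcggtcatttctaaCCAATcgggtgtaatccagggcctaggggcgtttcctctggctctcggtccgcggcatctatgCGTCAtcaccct

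The Coq10b window held an E-box 78 bases before the start, a D-box 162 bases before it, 2 CCAAT boxes and 4 copies of the CRE core, 1 of them directly beside the E-box. Of all 32851 windows in the table, 7.15% held the E-box, 0.938% the D-box, 37.4% the CCAAT box and 20.8% the CRE core. At least 4 CRE cores stood in 0.231% of windows, and an E-box together with a D-box in 0.0244%. The Coq10a window held 1 CRE core. The Coq8a window held 3 CCAAT boxes, and the window of its first start held no letters of the 10 motifs. The Coq7 window held 2 CCAAT boxes and 1 CRE core. A match is a description of the letters in the window and not evidence that a factor binds there.

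Coq10b was the member with the largest difference between UB and MC livers. It stood at 30.2, 41.6, 30.6, 33.0 and 29.8 CPM in UB livers, against 9.25, 12, 10.5, 13.8 and 12.4 CPM in MC livers and 10.2, 12.5, 11, 8.88 and 14.8 CPM in NC livers. Every UB library lay above every MC and NC library, while MC and NC libraries overlapped. The means were 33.0 ± 4.93 CPM in UB, 11.6 ± 1.78 CPM in MC and 11.5 ± 2.29 CPM in NC livers (SD, n = 5 each). The log2 difference was 1.51 ± 0.18 (SE) for UB minus MC, a 2.84-fold higher level, 1.52 ± 0.18 for UB minus NC and 0.01 ± 0.18 for MC minus NC. These values are the ones by which the gene was chosen.

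The members were chosen with earlier results of these data known. The treatment study shared no library with the UB minus MC difference. There Coq10b stood at 29.6, 20.1, 19.6, 21.7 and 24.3 CPM in Uro livers, 12.7, 18.3, 22.5, 13.1 and 15.3 CPM in HFD livers and 4.79, 8.67, 15.2, 17.4 and 21.6 CPM in NFD livers. HFD replicate 3 reached into the Uro range, and the NFD libraries spread from the lowest level of the 30 libraries to a level within the Uro range. The log2 difference for Uro minus HFD was 0.52 ± 0.28 (SE), with an approximate 95% interval of -0.04 to 1.07, and was not called (edgeR adjusted p = 0.187). On the log2(TPM + 0.1) scale it was 1.61 and called (limma adjusted p = 0.00154). On that scale the median over all genes was 1.155, and 6220 genes were called higher and 97 lower. Against NFD livers Coq10b was higher in Uro livers by 0.84 ± 0.29 (adjusted p = 0.0323). That call ended when Uro replicate 1 or 5 or NFD replicate 1 or 2 was left out, with adjusted p up to 0.0811. It was also lost, at 0.75 (adjusted p = 0.815), in a fit that carried the mitochondrial share of the libraries as a covariate.

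Coq8a, on the minus strand at chr1:179992803-180029294, went the other way between UB and MC livers. It stood at 40.7, 33.2, 34.5, 59.7 and 49.0 CPM in UB livers, 88.7, 90.4, 110, 85.9 and 59.1 CPM in MC livers and 57.9, 42.4, 53.1, 44.2 and 60.7 CPM in NC livers. MC replicate 5 was the 1 MC library within the UB and NC ranges, and UB and NC livers overlapped. The log2 difference was -1.0 ± 0.19 (SE) for UB minus MC, 0.75 ± 0.19 for MC minus NC and -0.25 ± 0.19 for UB minus NC, all given as description. On the log2(TPM + 0.1) scale the same 3 differences were -0.52, 1.26 and 0.74, beside medians of 0.468, 0.555 and 1.021 over all genes.

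In the treatment study Coq8a stood at 62.4, 70.5, 65.3, 49.7 and 71.7 CPM in Uro livers, 48.7, 81.1, 109, 60.3 and 58.2 CPM in HFD livers and 76.4, 78.7, 85.6, 62.1 and 46.4 CPM in NFD livers. The 3 groups overlapped, and the HFD libraries were the most spread. Uro minus HFD was -0.13 ± 0.22 on the log2 scale, with an interval of -0.56 to 0.29 (edgeR adjusted p = 0.691). HFD minus NFD was 0.07 ± 0.22, with an interval of -0.36 to 0.50 (adjusted p = 0.866). The difference between the 2 studies in the UB-NP effect, (Uro minus HFD) minus (UB minus MC), was -1.02 for Coq10b and 0.84 for Coq8a on the log2 scale. It carries no test because it contains the difference that chose the genes.

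**Figure D1:**
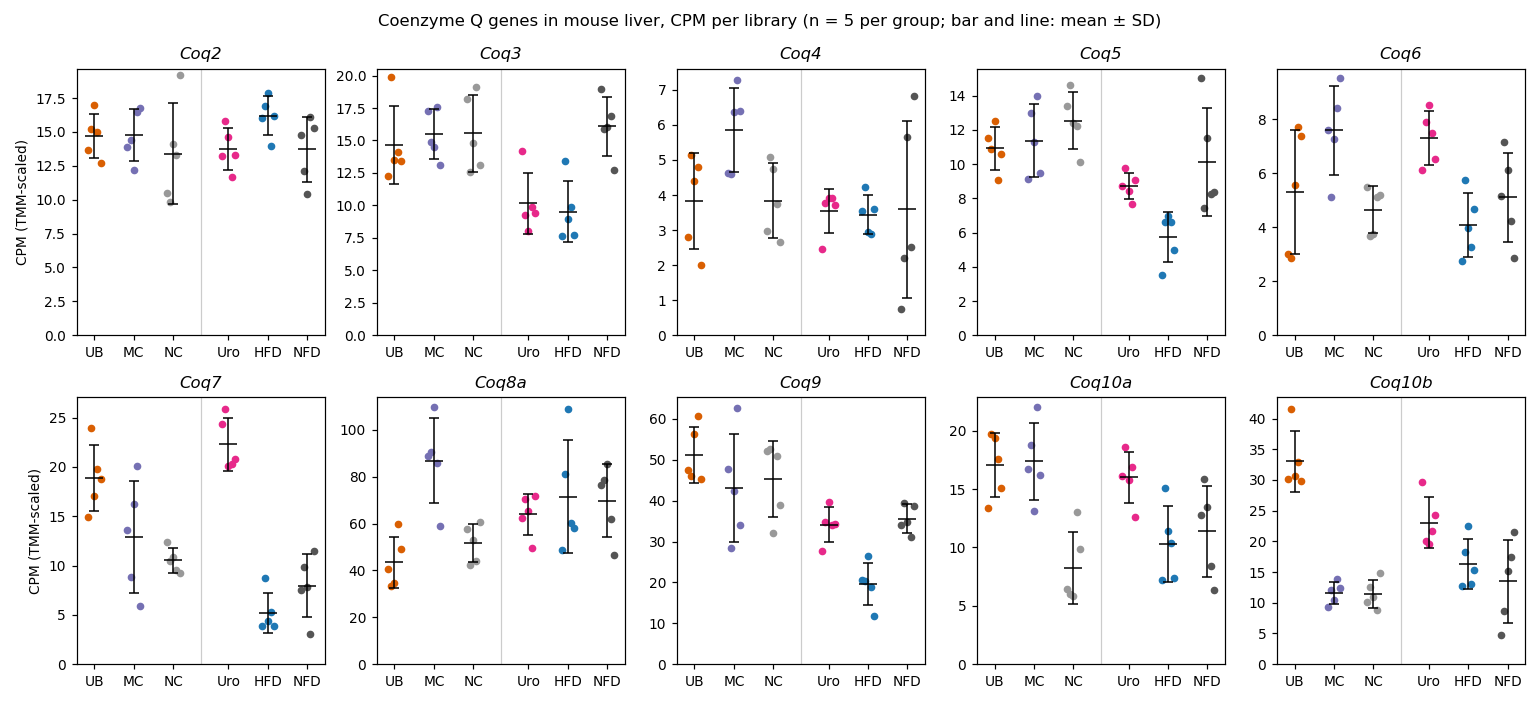
CPM of the 10 coenzyme Q genes (y axis, each panel from 0) in the UB, MC, NC, Uro, HFD and NFD libraries; points are libraries, and the bar and line are the mean and SD of 5. Coq10b is at 29.8 to 41.6 CPM in UB livers and 9.25 to 13.8 CPM in MC livers, and Coq7 at 20.1 to 25.9 CPM in Uro livers and 3.82 to 8.70 CPM in HFD livers.

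The other 8 members differed less between UB and MC livers, and each had overlapping groups. The log2 differences were 0.54 for Coq7 and 0.25 for Coq9 on the upper side, and -0.61 for Coq4 and -0.52 for Coq6 on the lower side. Coq2, Coq3, Coq5 and Coq10a lay between -0.09 and 0.00. On the log2(TPM + 0.1) scale Coq4 (0.23), Coq3 (0.40), Coq5 (0.47) and Coq10a (0.49) lay above 0. Coq10b was the 1 member of 10 whose UB and MC libraries did not overlap, beside 2.74% of the 13498 genes tested, and nothing is read from that count because the contrast chose the gene. In the same comparison 0.607% of genes were called, 0.207% higher and 0.4% lower. With single libraries left out, Coq10b lay between 1.41 and 1.58 and Coq8a between -1.15 and -0.90 on the log2 scale. These ranges are description only, because the same libraries chose both genes.

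The clearest change outside the choosing contrast was that of Coq7, the hydroxylase of the penultimate step of the pathway, on the minus strand at chr7:118108882-118132579. It stood at 24.4, 25.9, 20.1, 20.3 and 20.8 CPM in Uro livers, 3.82, 8.70, 4.41, 5.26 and 3.87 CPM in HFD livers and 7.51, 9.90, 7.83, 3.10 and 11.5 CPM in NFD livers. All Uro libraries lay above all HFD and NFD libraries, and the last 2 groups overlapped. Coq7 rose 4.34-fold in Uro over HFD livers, a log2 change of 2.12 ± 0.28 (SE; edgeR adjusted p = 1.22e-05), and by 1.56 ± 0.27 over NFD livers (adjusted p = 0.000217). HFD minus NFD was -0.56 ± 0.28 and was not called (adjusted p = 0.187). Both rises were called in all 10 fits that left out 1 library. In the prevention study Coq7 stood at 14.9, 23.9, 17, 19.8 and 18.8 CPM in UB livers, 13.6, 8.85, 16.2, 20.1 and 5.88 CPM in MC livers and 12.4, 10.5, 10.9, 9.57 and 9.20 CPM in NC livers. UB and NC libraries did not overlap, and MC libraries ran from below to above the NC range. Coq7 rose by 0.84 ± 0.24 in UB over NC livers (adjusted p = 0.0339), but the call held in only 3 of the 10 fits that left out 1 library. It ended without UB replicate 2, 3, 4 or 5 or NC replicate 2, 3 or 4, with adjusted p up to 0.0847. Adjusted for the mitochondrial share, the difference was -0.15.

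Coq7 was set beside the mitochondrial share of the libraries. Among MC livers the 5 libraries fell in opposite order on both measures: the library with 25.7% mitochondrial counts had 20.1 CPM of Coq7, that with 25.8% had 16.2, that with 34.1% had 13.6, that with 38.6% had 8.85 and that with 47.4% had 5.88 CPM. In Uro, NC and NFD livers no such order was seen. There the library with the highest share, 15.6% in Uro, 51.6% in NC and 57.7% in NFD livers, had the highest Coq7 level of its group, 25.9, 12.4 and 11.5 CPM. In UB and HFD livers the library with the highest share, 35.6% and 58.5%, had the lowest Coq7 level of its group, 14.9 and 3.82 CPM. The other libraries of these groups did not follow the order seen in MC livers. In the covariate fit Uro minus HFD for Coq7 was 1.81 on the log2 scale and was not called (adjusted p = 0.389). That fit called 0 genes in Uro minus HFD, with 1545 genes at an unadjusted p under 0.05. The Uro libraries share no range of the covariate with the other groups, so UB-NPs in obese mice and a low mitochondrial share cannot be told apart in these libraries. In bulk tissue, fewer cells of a type and less RNA per cell cannot be told apart either.

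**Figure D2:**
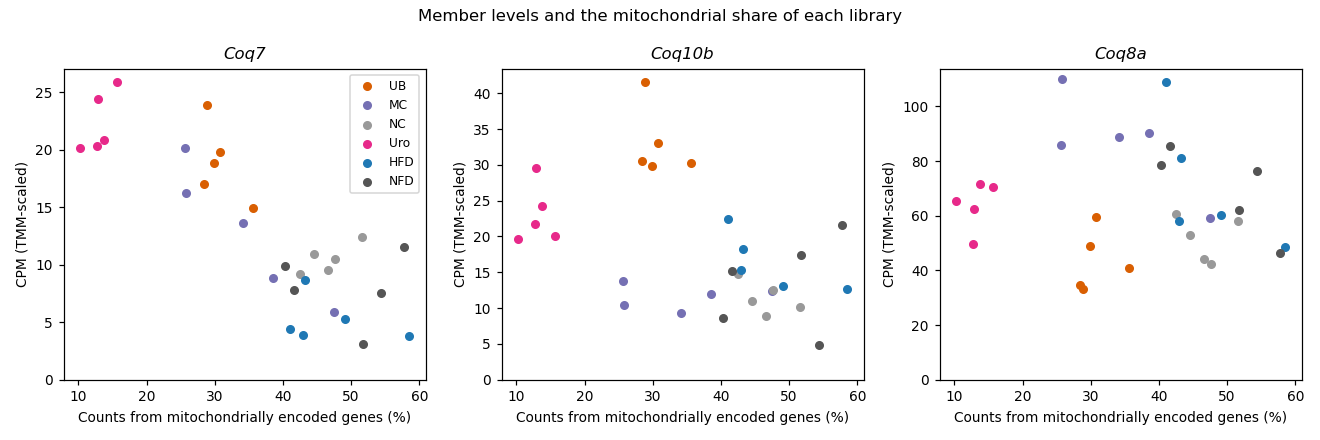
CPM of Coq7, Coq10b and Coq8a (y axes) against the percentage of counts from mitochondrially encoded genes (x axes) in each of the 30 libraries, coloured by group. Uro libraries lie at 10.2 to 15.6% with 20.1 to 25.9 CPM of Coq7. UB libraries lie at 28.5 to 35.6% with 29.8 to 41.6 CPM of Coq10b, and MC libraries at 25.7 to 47.4% with 9.25 to 13.8 CPM.

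The mitochondrial share was 28.5 to 35.6% in UB livers, inside a wider range of 25.7 to 47.4% in MC livers. With the share as a covariate UB minus MC was 1.48 for Coq10b and -1.06 for Coq8a, given as description because this difference chose both genes. The part of the mitochondrial share in it was not tested.

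Of the 10 members, 5 rose in Uro over HFD livers and 0 fell, beside 15.3% of the 14163 genes tested that rose and 11.7% that fell (27.1% in all), while on the log2(TPM + 0.1) scale all 10 were called higher, with 6220 genes higher and 97 lower and a median of 1.155 over all genes. The median log2 difference was 0.57 over the members and -0.08 over all genes tested. Besides Coq7 these were Coq9, Coq6, Coq10a and Coq5. In 4 of the 10 the Uro and HFD libraries did not overlap, beside 24.3% of all genes.

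Coq9, the lipid-binding partner of Coq7, lies on the plus strand at chr8:95564949-95581525. It stood at 27.7, 34.9, 39.7, 34.1 and 34.2 CPM in Uro livers, 20.5, 20.3, 26.5, 18.9 and 11.8 CPM in HFD livers and 34.1, 39.4, 34.8, 31.0 and 38.8 CPM in NFD livers. HFD livers lay below both other groups in every library, and Uro and NFD livers overlapped. Coq9 rose by 0.82 ± 0.19 in Uro over HFD livers (SE; edgeR adjusted p = 0.00243) and fell by 0.82 ± 0.19 in HFD relative to NFD livers (adjusted p = 0.00679), and both calls held in all 10 fits that left out 1 library. Uro minus NFD was 0.00, with an interval of -0.36 to 0.37. In the prevention study its means were 51.2 ± 6.90 CPM in UB, 43.1 ± 13.2 CPM in MC and 45.4 ± 9.28 CPM in NC livers (SD, n = 5 each), and neither comparison with NC was called.

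Coq6, the first ring hydroxylase, stood at 6.10, 7.91, 8.51, 7.47 and 6.53 CPM in Uro livers and 2.75, 5.74, 3.98, 3.25 and 4.69 CPM in HFD livers. The groups did not overlap. Coq6 rose by 0.85 ± 0.26 on the log2 scale (SE; edgeR adjusted p = 0.0168), in all 10 fits that left out 1 library, but the value was -0.84 when adjusted for the mitochondrial share. Its gene overlaps Entpd5 on the opposite strand, which had a mean count of 3141 against 124 for Coq6, and whether the counting used strand is not stated. Reads of the pair cannot be told apart if it did not.

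Coq5, a methyltransferase, stood at 8.69, 9.75, 8.45, 7.66 and 9.05 CPM in Uro livers, 3.53, 6.64, 6.96, 6.61 and 4.95 CPM in HFD livers and 15.0, 7.44, 11.5, 8.24 and 8.36 CPM in NFD livers. HFD libraries lay below all others, and NFD replicates 1 and 3 lay above the Uro range. Coq5 rose by 0.62 ± 0.23 in Uro over HFD livers (edgeR adjusted p = 0.0464) and fell by 0.77 ± 0.23 in HFD relative to NFD livers (adjusted p = 0.0315). The rise was called in 2 of 10 fits that left out 1 library, those without HFD replicate 2 or 3, with adjusted p up to 0.114 in the others. It was also lost with RLE size factors (0.0569), TMM without mitochondrial genes (0.06), no low-count filter (0.0611) and the replicate block (0.0809), and adjusted for the mitochondrial share the value was 0.32 (0.889). The fall was called in 6 of 10, and not without HFD replicate 1 or 5 or NFD replicate 1 or 3 (adjusted p up to 0.0966), and it was lost with the replicate block (0.071) and with no low-count filter (0.0653). Coq5 overlaps Dynll1 on the opposite strand, with a mean count of 276 against 198 for Coq5.

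Coq10a lies on the minus strand at chr10:128198308-128205058 and overlaps Cs, citrate synthase, on the opposite strand, which had a mean count of 1160 against 296 for Coq10a. The doubt about strand given for Coq6 bears on every Coq10a, Coq5 and Coq4 value. It bears on Coq9 and Coq8a as well, which overlap Ciapin1 and Cdc42bpa on the opposite strand. Ciapin1 had a mean count of 264 against 786 for Coq9, and Cdc42bpa 194 against 1334 for Coq8a. Coq10b, with a mean count of 413, overlaps E330011M16Rik (7.3) on the opposite strand and the pseudogene Gm17971 (0.33) on its own strand. It also overlaps Gm71177, a long noncoding RNA on the opposite strand for which no count was available. In the treatment study Coq10a stood at 16.1, 18.6, 15.8, 16.9 and 12.6 CPM in Uro livers, 7.25, 15.1, 11.4, 10.4 and 7.37 CPM in HFD livers and 12.8, 15.9, 13.5, 8.40 and 6.33 CPM in NFD livers. HFD replicate 2 reached into the Uro range, and HFD and NFD livers overlapped. Coq10a rose by 0.66 ± 0.24 in Uro over HFD livers (edgeR adjusted p = 0.0451). That call held in 3 of 10 fits that left out 1 library and ended without any of Uro replicates 1 to 4 or HFD replicates 1, 4 and 5 (adjusted p up to 0.119). RLE size factors (0.0514) and TMM without mitochondrial genes (0.0565) also ended it. Adjusted for the mitochondrial share, it was -0.74.

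The remaining 5 members did not pass in Uro minus HFD. Coq2, which joins tail and ring, was at 11.7 to 15.8 CPM in Uro and 14 to 17.9 CPM in HFD livers, Coq3 at 8.01 to 14.2 and 7.65 to 13.4 CPM, and Coq4 at 2.45 to 3.92 and 2.89 to 4.23 CPM. Their log2 differences were -0.22, 0.12 and 0.07, with intervals of -0.55 to 0.12, -0.28 to 0.52 and -0.67 to 0.81. The interval of Coq4, the member with the lowest counts, is the widest of the 10, and Trub2, on the strand opposite to it, had a mean count of 150 against 82 for Coq4.

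**Figure D3:**
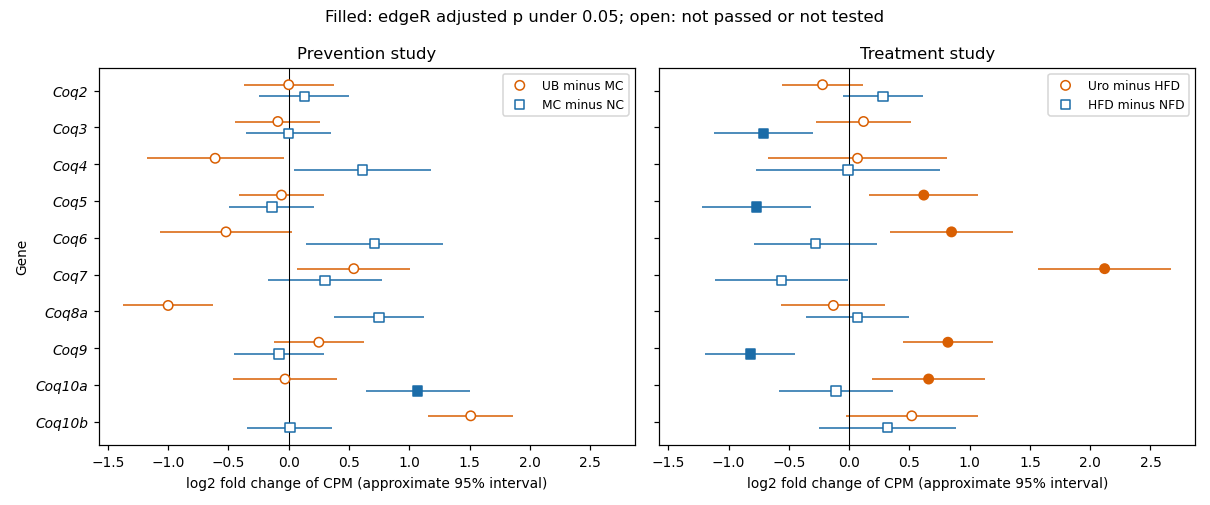
Log2 fold change of CPM (x axis, points) with an approximate 95% interval (lines) for each member (y axis) in UB minus MC and MC minus NC (left) and in Uro minus HFD and HFD minus NFD (right); filled points had an edgeR adjusted p under 0.05, and UB minus MC was not tested. Coq10b and Coq8a lie at 1.51 and -1.0 in UB minus MC, and Coq7 at 2.12 in Uro minus HFD.

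Transcript length moved with the Uro minus HFD difference over all genes. The median log2 difference was 0.48 for genes of 501 to 1000 bases, 0.32 for 1001 to 1500, 0.11 for 1501 to 2000, -0.06 for 2001 to 3000 and -0.19 for 3001 to 4500 bases. Coq7, with 1215 bases the shortest member, exceeded its class median by 1.80 and lay above 97.8% of the 1531 genes of its class. Coq10a, with 1421 bases, exceeded the same class median by 0.34 and lay above 65.7% of that class. Coq9, Coq6 and Coq5 lay above 81.0%, 81.7% and 81.4% of their classes. Coq8a, the longest member with 4026 bases, differed from its class median by 0.06. In UB minus MC no class of more than 500 bases had a median beyond 0.03 on either side, and there Coq10b lay above 99.0% and Coq8a above 1.94% of their classes, as description. The part of length in these results was not tested.

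**Figure D4:**
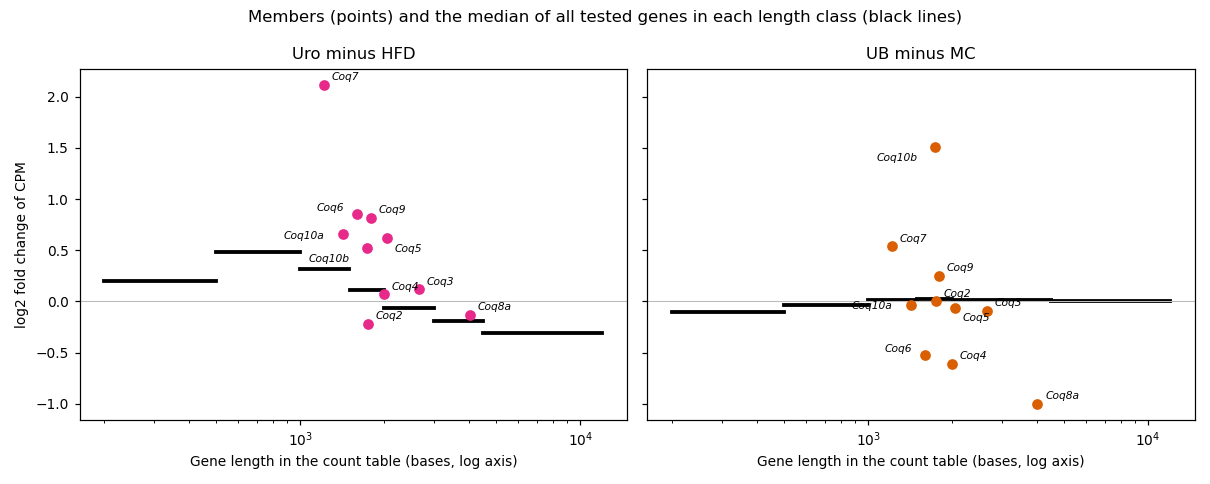
Log2 fold change of CPM (y axis) against the gene length given in the count table (x axis, log scale) for the members (points), with the median of all tested genes in each length class (black lines), in Uro minus HFD (left) and UB minus MC (right). Class medians run from 0.48 to -0.31 in Uro minus HFD for genes over 500 bases and stay near 0 in UB minus MC; Coq7 lies 1.80 above its class.

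Markers of liver cell types were also higher or lower beside these members. All 5 hepatocyte markers rose in Uro over HFD livers, and their summed level was 31823 to 48258 CPM in Uro and 10103 to 25557 CPM in HFD livers. Of 4 lipid-associated macrophage markers, Cd9 rose (1.42, edgeR adjusted p = 0.000616) and Lpl fell (-1.46, adjusted p = 5.16e-05) in Uro over HFD livers, while Gpnmb (-1.36, adjusted p = 0.0611) and Trem2 (0.08, adjusted p = 0.887) were not called. Their summed level, most of it Lpl, was 130 to 213 CPM in Uro, 268 to 497 CPM in HFD and 35.6 to 59.9 CPM in NFD livers, and 3 of the 4 rose in HFD over NFD livers. In UB minus MC, edgeR called 0 of the 5 hepatocyte markers and DESeq2 1, with 1 at an unadjusted p under 0.05, and their summed level was 13858 to 25856 CPM in UB and 20414 to 36178 CPM in MC livers. The part of cell composition in the members' differences was not tested.

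High-fat feeding was compared with the standard diet within each study. In HFD minus NFD, 3 of 10 members fell and 0 rose, beside 5.96% of the 14163 genes that fell and 7.19% that rose, and on the TPM scale, where the median of all genes was 0.325, none of the 3 was called. Besides Coq9 and Coq5 this was Coq3, the O-methyltransferase. It stood at 7.65, 13.4, 8.95, 9.86 and 7.70 CPM in HFD livers, against 19.0, 15.9, 16, 16.9 and 12.7 CPM in NFD livers. HFD replicate 2 and NFD replicate 5 overlapped. Coq3 fell by 0.71 ± 0.21 on the log2 scale (SE; edgeR adjusted p = 0.0255), in 6 of 10 fits that left out 1 library and not without HFD replicate 1, 4 or 5 or NFD replicate 1 (adjusted p up to 0.0763). It was also lost with no low-count filter (0.0583). The mitochondrial share was 47.0 ± 7.13% in HFD and 49.1 ± 7.82% in NFD livers (SD, n = 5 each). With the share as a covariate the 3 members were called, at -0.74 for Coq3, -0.80 for Coq5 and -0.83 for Coq9. The part of the share in these differences was not tested. The summed level of the 3 erythroid markers was 71.6 to 697 CPM in HFD and 708 to 2071 CPM in NFD livers, and the part of blood in these differences was not tested. Hepatocyte markers overlapped, at 10103 to 25557 CPM in HFD and 17523 to 29411 CPM in NFD livers.

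In the prevention study, 1 of the 8 members tested rose in MC over NC livers, beside 6.65% of the 13498 genes, and 0 fell, beside 5.53%, while on the log2(TPM + 0.1) scale 3 were called higher, with 2349 genes higher and 73 lower. It was Coq10a, at 16.7, 18.8, 13.1, 22.0 and 16.2 CPM in MC livers, against 6.45, 6.03, 5.88, 13.0 and 9.84 CPM in NC livers. All MC libraries lay above all NC libraries, MC replicate 3 and NC replicate 4 by the smallest gap, and Coq10a was the 1 member without overlap, beside 8.2% of all genes. The rise was 1.07 ± 0.22 on the log2 scale (SE; edgeR adjusted p = 0.00391). UB livers, at 13.4, 19.7, 19.4, 17.6 and 15.1 CPM, lay in the MC range, and Coq10a rose by 1.04 ± 0.22 in UB over NC livers (adjusted p = 0.00564). Both calls held in all 10 fits that left out 1 library and ended after adjustment for the mitochondrial share, at 0.92 and 0.83 with adjusted p of 0.0887 and 0.339. In UB minus NC, 2 of the 8 members tested rose, Coq10a and Coq7, beside 4.47% of genes, and 0 fell, beside 3.33% (7.8% in all), while on the log2(TPM + 0.1) scale all 8 were called higher, with 6364 genes higher and 32 lower. Coq10a and Coq7 also had UB and NC libraries that did not overlap, beside 7.48% of all genes. Those of Coq10b did not overlap either, but nothing is read from that because the UB libraries were used to choose it. Cell type markers also differed in MC minus NC. Of the hepatocyte markers 3 of 5 rose and 1 fell, and of the lipid-associated macrophage markers 3 of 4 rose, with a summed level of 77.1 to 328 CPM in MC and 35.4 to 65 CPM in NC livers. Of 5 Kupffer cell markers Timd4 (-1.97, edgeR adjusted p = 0.00262) and Vsig4 (-2.01, adjusted p = 0.0077) fell. Their part in the members' differences was not tested.

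The diet effect of Coq10a was compared between the studies. HFD minus NFD was -0.11 ± 0.24, and the difference between the diet effects, (HFD minus NFD) minus (MC minus NC), was -1.22 ± 0.34 on the log2 scale (SE; edgeR interaction contrast, adjusted p = 0.0268). It was the 1 call among the 8 members tested, beside 5.42% of 14784 genes. The call held in 15 of 20 fits that left out 1 library and ended without HFD replicate 1 or 5, NFD replicate 2, MC replicate 4 or NC replicate 2 (adjusted p up to 0.0645). It was also lost when adjusted for the mitochondrial share (-0.94, adjusted p = 0.136) and on both TPM scales (-1.30 and -1.13, adjusted p = 0.294 and 0.285). Coq3 and Coq9, which fell with the longer feeding, gave -0.75 (adjusted p = 0.0896) and -0.79 (adjusted p = 0.0828), so their diet effects were not shown to differ between the studies.

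Between Uro and NFD livers, 2 of 10 members rose, Coq7 and Coq10b, beside 16.1% of genes, and 1 fell, beside 12.3% (28.4% in all), while on the TPM scale all 10 were called higher. Coq7 was the 1 member without overlap, beside 19.9% of all genes. The 1 that fell was Coq3, at 14.2, 9.26, 8.01, 9.86 and 9.44 CPM in Uro livers and the NFD levels given above. Uro replicate 1 lay within the NFD range. The change was -0.60 ± 0.20 (SE; edgeR adjusted p = 0.0314), called in 2 of 10 fits that left out 1 library, those without Uro replicate 1 or NFD replicate 5 (adjusted p up to 0.0908), and it was 0.86 on the TPM scale, where the median of all genes was 1.53.

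The START-domain pair and the pair of Coq7 and Coq9 were also set against each other within each library, where the scaling of libraries plays no part. The ratio of Coq10b to Coq10a counts was 2.25, 2.11, 1.58, 1.87 and 1.97 in UB livers, 0.555, 0.639, 0.796, 0.628 and 0.766 in MC livers and 1.58, 2.07, 1.87, 0.682 and 1.51 in NC livers. Coq10b was the more counted of the pair in all UB and 4 of 5 NC livers and the less counted in all MC livers. Between UB and MC livers this ratio contains the difference by which Coq10b was chosen, so it is description only. The treatment groups overlapped, at 1.08 to 1.92 in Uro, 1.21 to 2.07 in HFD and 0.375 to 3.42 in NFD livers. The ratio of Coq7 to Coq9 counts was 0.881, 0.743, 0.506, 0.594 and 0.607 in Uro livers, 0.187, 0.428, 0.167, 0.278 and 0.327 in HFD livers and 0.220, 0.252, 0.225, 0.1 and 0.295 in NFD livers. The Uro ratios lay above all others of the study. In the prevention study this ratio was 0.303 to 0.519 in UB, 0.172 to 0.383 in MC and 0.188 to 0.339 in NC livers, and the groups overlapped.

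**Figure D5:**
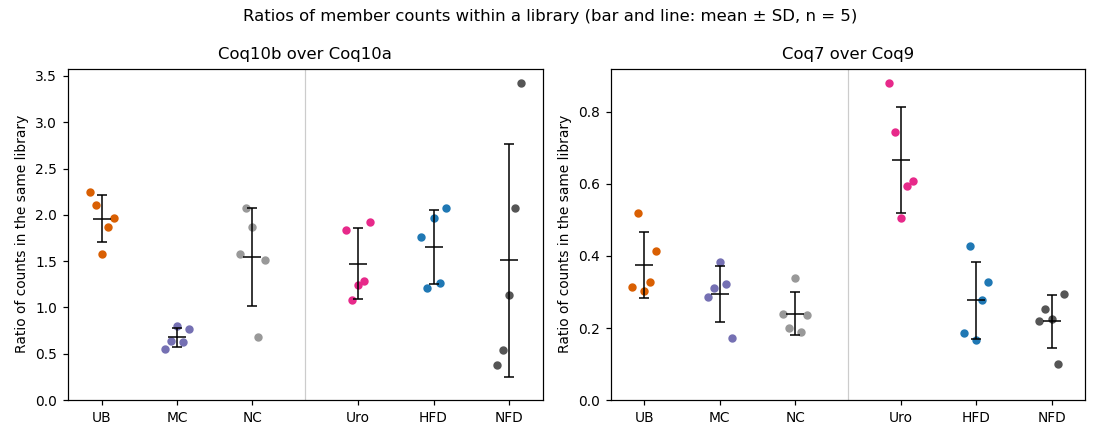
Ratio of Coq10b to Coq10a counts (left) and of Coq7 to Coq9 counts (right) within each library (y axes, from 0) by group; points are libraries, and the bar and line are the mean and SD of 5. The left ratio is 1.58 to 2.25 in UB and 0.555 to 0.796 in MC livers, which contains the difference that chose Coq10b. The right ratio is 0.506 to 0.881 in Uro and 0.167 to 0.428 in HFD livers.

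Levels per length are given by the deposited TPM and were compared within groups. Coq9 had the highest mean TPM of the members in UB (31.6), MC (21.1), NC (16) and NFD (11.4) livers, Coq7 in Uro livers (39.2) and Coq8a in HFD livers (10.9). In Uro livers Coq7, at 34.7 to 44.7 TPM, lay above Coq9, at 21.1 to 31.5 TPM, in every library, and in NC livers Coq9 lay above Coq7 without overlap. In the other 4 groups the ranges of the first and second gene overlapped. Coq4 was the lowest in all 6 groups, from 0.986 ± 0.308 TPM in NC to 3.81 ± 0.754 TPM in Uro livers (SD, n = 5 each). Coq10b ranked 3 in UB livers (19.0 TPM), 7 in MC livers (5.07 TPM) and 5 in NC livers (3.34 TPM) by mean TPM, and overlapped its neighbours in that order in all 3 groups.

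Genes around the pathway were taken from 4 lists with 53 genes. Of the partner genes of coenzyme Q synthesis, 15 of 16 were measured, and 3 rose and 0 fell in Uro over HFD livers, beside 15.3% and 11.7% of all genes, with a median log2 difference of 0.36 beside -0.08 over all genes. Fdx1, a mitochondrial ferredoxin, rose to 43.9 ± 9.76 CPM in Uro livers, against 15.1 ± 6.02 CPM in HFD livers, a log2 change of 1.57 (edgeR adjusted p = 0.000178). Parl, a rhomboid protease of the inner membrane, and Coq8b, the paralog of Coq8a, both rose by 0.93 (adjusted p = 0.00161 and 0.0246). Coq8b was not called without Uro replicate 3 or HFD replicate 4 (adjusted p up to 0.0845). In UB minus MC edgeR called 0 of the 15 and DESeq2 0, with 3 at an unadjusted p under 0.05.

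Of 16 enzymes that hand electrons to coenzyme Q, 9 rose and 0 fell in Uro over HFD livers, beside 15.3% and 11.7% of all genes, with a median of 0.72. Sdhc and Sdha, subunits of succinate dehydrogenase, rose by 1.34 (edgeR adjusted p = 7.29e-05) and 1.18 (adjusted p = 0.000263), and Etfb, a subunit of the electron transfer flavoprotein of fat oxidation, by 1.32 (adjusted p = 0.00031). Etfb averaged 470 ± 68.2 CPM in Uro livers and 192 ± 58.0 CPM in HFD livers (SD, n = 5 each). In HFD minus NFD 5 of the 16 fell, beside 5.96% of all genes, and in MC minus NC also 5, beside 5.53%. In UB minus MC edgeR and DESeq2 called 0 of the 16, with 1 at an unadjusted p under 0.05.

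Of 9 enzymes of the mevalonate pathway, which supplies the isoprenoid tail, 1 rose and 2 fell in Uro over HFD livers, beside 15.3% and 11.7% of all genes, with a median of -0.15. Hmgcs1, the cytosolic HMG-CoA synthase, fell to 33.3 ± 10.1 CPM in Uro livers, against 85.8 ± 18.2 CPM in HFD livers, a log2 change of -1.34 (edgeR adjusted p = 0.000324). It was also the 1 gene of the 4 lists called in UB minus MC, at -0.91 (adjusted p = 0.0329), with 31.2 ± 5.50 CPM in UB livers and 58.5 ± 19.3 CPM in MC livers (SD, n = 5 each). That call held in 3 of 10 fits that left out 1 library and ended without UB replicate 2, 3, 4 or 5 or MC replicate 1, 2 or 3 (adjusted p up to 0.15). It was also lost when adjusted for the mitochondrial share (-0.77, adjusted p = 0.0671) and on the log2(TPM + 0.1) and log2(TPM + 1) scales (-0.37 and -0.34, adjusted p = 0.288 and 0.274). Ggps1, which makes geranylgeranyl diphosphate, fell by 0.77 in Uro relative to HFD livers (adjusted p = 0.015), and Acat2, a cytosolic thiolase at the entry of the pathway, rose by 1.04 (adjusted p = 0.0008). On the TPM scale neither Hmgcs1 nor Ggps1 was called in Uro minus HFD. In HFD minus NFD and in Uro minus NFD 6 of the 9 fell and 0 rose, with medians of -1.01 and -1.60. Of all genes 5.96% fell in HFD minus NFD and 12.3% in Uro minus NFD.

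Of 12 regulators of mitochondrial genes, 1 was called in Uro minus HFD, beside 27.1% of all genes. Ppargc1a, a coactivator of mitochondrial gene programs, fell to 2.30 ± 0.799 CPM in Uro livers, against 5.25 ± 2.01 CPM in HFD livers, a log2 change of -1.15 (edgeR adjusted p = 0.0152). Without HFD replicate 1 the call was lost (adjusted p = 0.0615), and adjusted for the mitochondrial share the value was 0.48. Tfam, a transcription factor of the mitochondrial genome, was at 0.54 (adjusted p = 0.0674) and Gabpb1, a subunit of the GABP factor, at -0.66 (adjusted p = 0.0814). In UB minus MC edgeR and DESeq2 called 0 of the 12, with 1 at an unadjusted p under 0.05. In the covariate fit no gene of the 4 lists was called in Uro minus HFD, where edgeR called 0 of all genes.

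Patterns over the 30 libraries were compared for Coq10b and Coq8a by Pearson's correlation of log2(CPM + 0.5) among 11076 genes, as description, since libraries of a group share their treatment and the mitochondrial share. The genes most like Coq10b were Mcm5 (0.714), Nr1d2 (0.713), Maff (0.71), Fbxo33 (0.707) and Riok2 (0.684). Maff averaged 5.34 CPM in UB, 2.00 CPM in MC and 1.64 CPM in NC livers, and Nr1d2 41.7, 20.5 and 22.8 CPM in the same groups. Those most like Coq8a were Pxdc1 (0.800), Atp2a2 (0.787), Apoa1 (0.777), Selenoi (0.764) and Agpat2 (0.763), and Atp2a2 averaged 31.4 CPM in UB, 62.5 CPM in MC and 34.2 CPM in NC livers. For Coq7, chosen after its values were seen, they were Ndufa4 (0.939), Hint1 (0.934), Prdx5 (0.931), Adh1 (0.930) and Atp5mj (0.929). Coq10b and Coq8a correlated with each other at -0.408, Coq7 with Coq9 at 0.609 and Coq10b with its paralog Coq10a at 0.290.

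The authors' deposited table of calls listed 4 of the 10 members, under thresholds that are not stated. In it Coq10b was called higher in UB against MC and against NC, Coq10a higher in MC and in UB against NC, and Coq7 higher in Uro against HFD and against NFD. These calls come from the same libraries, and those of Coq10b use the UB libraries by which it was chosen. The same deposited table, made by the authors, did not call Coq9 in Uro against HFD or in HFD against NFD, Coq10a in Uro against HFD, Coq7 in UB against NC or Coq10b in Uro against NFD, which edgeR called here. Coq2, Coq3, Coq4, Coq5, Coq6 and Coq8a were not listed in it for any comparison. Calls made here for Coq5 and Coq6 in Uro minus HFD therefore had no counterpart there. Nor had those for Coq3 and Coq5 in HFD minus NFD and for Coq3 in Uro minus NFD. Coq7 and Coq9 were called lower there in HFD against MC, a comparison across the 2 studies that was not made here.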

How the data were processed

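Liver RNA of 30 libraries in 6 labelled groups of 5 was measured by poly(A)-selected stranded RNA sequencing in paired ends, per the labels' protocols. The tools listed without versions in the submitters' processing notes are HISAT2, fastp, DESeq2 and StringTie, and the listed genome build is GRCm39. The deposited table holds expected counts per gene that the authors did not scale, and 4.02% to 7.03% of genes had a fractional value in a library. A second deposited table gives the authors' TPM, which are scaled by gene length and library total, used here on a log2 scale. How overlapping genes were counted is not stated.

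Counts were rounded and each study of 15 libraries was fitted with edgeR 4.0.16 in R 4.3.3 (filterByExpr by group, TMM, robust quasi-likelihood, two-sided F-test). The Benjamini-Hochberg method was applied across every gene tested in a study, with calls under 0.05, and differences between studies were tested in 1 fit of 30 libraries. The filter kept all 10 members in both studies. The standard error is the absolute log2 fold change over the square root of F. Intervals reach 1.96 standard errors to either side of the group difference and are approximate, so they can differ from the test. For Coq7 in HFD minus NFD the interval was -1.1 to -0.02, while the unadjusted edgeR p was 0.056. P-values weigh a group difference against the spread between these libraries. Of 60 library pairs within groups, 0 were identical. The table of 57180 genes was joined to GENCODE M39 for coordinates, with 56620 IDs matched. Promoter windows came from RefSeq (GRCm38.p6).

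Alternatives were DESeq2 1.42.0, RLE size factors, TMM without mitochondrial genes, no filter, the mitochondrial share as a covariate, a replicate block, all 30 libraries in 1 fit, limma 3.58.1 on log2(TPM + 0.1) or log2(TPM + 1), and each library left out. On simulated counts edgeR recovered 53.0% of 2-fold and 96.0% of 4-fold changes in Uro minus HFD with 13727 genes, and 57.0% and 95.0% in UB minus MC with 13020 genes. Length classes were added after the data had been seen. The members and gene lists were chosen with earlier results of these data known. Named genes are the members and, from each pathway list, up to 3 genes with the smallest adjusted p in Uro minus HFD. Any list gene called in UB minus MC is named too, as are the 5 genes most like Coq10b and Coq8a. The 5 genes most like Coq7 were added after its values were seen. Single markers of lipid-associated macrophages and Kupffer cells and genes that overlap a member are also named. Figures were drawn with matplotlib 3.10.9.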

Additional observations from a re-analysis of the deposited data

Results flagged for a closer look

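In 3 cases a library value stood apart from the other 4 of their group, by a gap that is large against the group's range. Chance gives about 5% of groups such a value, and 60 groups (10 members in 6 groups) were examined. Coq10b in UB replicate 2 was 41.6 CPM, with the nearest UB library at 33.0 CPM. Coq3 in the same library, UB replicate 2, was 19.9 CPM, with the nearest at 14.1 CPM. Coq4 in Uro replicate 1 was 2.45 CPM, with the nearest at 3.71 CPM. Without UB replicate 2 the log2 difference of Coq10b between UB and MC livers was 1.41, beside 1.51 with it, as description.

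The diet effect of Coq10a differed between the studies by a log2 value of -1.22 (edgeR adjusted p = 0.0268), with 1.07 in MC minus NC and -0.11 in HFD minus NFD. The call was lost when adjusted for the mitochondrial share (-0.94, adjusted p = 0.136) and on both TPM scales (adjusted p = 0.294 and 0.285). All 5 MC libraries lay above all 5 NC libraries, and HFD and NFD libraries overlapped.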

How the results depend on the processing

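Of 735 values of single genes under other settings, 57 changed sign, 21 of them with a call before or after; 44 others lost a call and 30 gained one. Of 930 values with a library left out, 30 changed sign, 0 of them with a call; 57 lost a call and 12 gained one. The cause of the changes was not tested. On the log2(TPM + 0.1) scale the median of all genes moved to 0.468 in UB minus MC, 0.555 in MC minus NC, 1.021 in UB minus NC, 1.155 in Uro minus HFD, 0.325 in HFD minus NFD and 1.528 in Uro minus NFD. Values that changed sign on the TPM scale with a call, with a pseudocount of 0.1 and of 1, were, in UB minus NC, Coq3 (0.94 and 0.76), Coq4 (1.30 and 0.84) and Coq5 (0.80 and 0.65). In Uro minus HFD they were Coq2 (0.90 and 0.80) and Coq8a (1.00 and 0.92), with Gabpb1 (0.55) under a pseudocount of 1 alone. In Uro minus NFD they were Coq3 (0.86 and 0.67), Coq5 (1.32 and 1.03) and Coq8a (1.43 and 1.30). Adjusted for the mitochondrial share as a covariate, Coq7 in UB minus NC (-0.15) and Coq6 (-0.84), Coq10a (-0.74) and Ppargc1a (0.48) in Uro minus HFD changed sign with a call. Among the 36 sign changes without a call were, under the covariate, Coq6 (-1.22) and Coq10a (-0.92) in Uro minus NFD and Coq7 (-0.58) in MC minus NC, and, under log2(TPM + 0.1), Coq8a in UB minus NC (0.74), Gabpb1 in Uro minus HFD (0.89), Coq5 in MC minus NC (0.33) and, in UB minus MC, Coq3 (0.40), Coq4 (0.23), Coq5 (0.47) and Coq10a (0.49).

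Counts of called members under TPM, with either pseudocount, were 3 in MC minus NC, 8 in UB minus NC, 10 in Uro minus HFD, 10 in Uro minus NFD, 0 in HFD minus NFD and 0 in the diet difference between studies. Adjusted for that share they were 0 in each of these except HFD minus NFD, where 3 stayed called. In Uro minus HFD 3 were called with RLE size factors and 3 with TMM without mitochondrial genes, and in HFD minus NFD 1 without a low-count filter. Called genes numbered 82 in UB minus MC, against 214 with DESeq2, 129 without a filter and 23 under log2(TPM + 0.1), of which 21 were higher and 2 lower. The covariate gave 319 in MC minus NC (1645 without it), 72 in UB minus NC (1053), 0 in Uro minus HFD (3836), 0 in Uro minus NFD (4027) and 204 in the diet difference (801). Under TPM with pseudocounts of 0.1 and 1 the counts were 6396 and 6449 in UB minus NC, 6317 and 6866 in Uro minus HFD, 637 and 600 in HFD minus NFD (1863), 8206 and 8326 in Uro minus NFD, and 96 and 63 in the diet difference.

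With single libraries left out, called genes ranged from 20 to 100 in UB minus MC (29, 34, 29 and 53 without UB replicate 1, 2, 3 and 4, and 27 and 20 without MC replicate 2 and 3), 923 to 2315 in MC minus NC (1051 without MC replicate 3, 923 without NC replicate 2), 550 to 1589 in UB minus NC (moved most without UB replicate 4 or 5 or NC replicate 2 or 5), 3023 to 3661 in Uro minus HFD, 1108 to 2341 in HFD minus NFD (1178 and 1108 without HFD replicate 4 and 5), 3216 to 4222 in Uro minus NFD and 495 to 1383 in the diet difference. Called members ranged from 1 to 1, 1 to 2, 3 to 5, 1 to 4 and 1 to 3 in MC minus NC, UB minus NC, Uro minus HFD, HFD minus NFD and Uro minus NFD, and from 0 to 3 in the diet difference.

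Replicate numbers did not pair the samples: the correlations of same-numbered deviations lay between -0.22 and 0.195. With the replicate block 96 genes were called in UB minus MC, 1907 in MC minus NC, 1246 in UB minus NC, 3366 in Uro minus HFD, 1411 in HFD minus NFD, 3595 in Uro minus NFD and 669 in the diet difference, with 1, 2, 4, 2, 4 and 1 members in all but the first. Depth limits Coq4 and Coq6 most, the members with the fewest counts.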
